A study of Homo sapiens with 2 samples.

Results

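The genes described here encode the proteins of intermediate filaments, the rope-like part of the cytoskeleton, together with the lamins that line the nucleus. They were chosen by symbol, as keratins (KRT followed by a number and at most a letter A to C) and as VIM, NES, LMNA, LMNB1, LMNB2, INA, NEFL, NEFM, NEFH, DES, GFAP, SYNM and PRPH. In all, 22 of the 28038 listed genes met this rule, 11 keratins and 11 others. Of the 22, 12 had at least 50 counts over both libraries and 10 had fewer, where 14157 of all 28038 listed genes had at least 50. The samples were 1 control culture with a blank viral vector (OVCAR3-NC) and 1 culture overexpressing IGF2BP3 (OVCAR3-OE), an RNA-binding protein. The labels give both as OVCAR-3, a line established from a human ovarian carcinoma. Poly(A) RNA was sequenced to 43190215 counts in OVCAR3-NC and 48017861 in OVCAR3-OE. Each group is 1 library, so replicate error is unknown, p-values are not given, and differences are those between 2 libraries. IGF2BP3 itself had 2944 counts in OVCAR3-NC and 6376 in OVCAR3-OE, a ratio of 1.96 after scaling.

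Intermediate filament proteins share a central coiled-coil rod and are grouped into types by sequence. Type I (acidic) and type II (basic) keratins pair with each other in every keratin filament, and simple epithelia typically carry the pair of KRT8 and KRT18, often with KRT7 and KRT19. Type III holds vimentin of mesenchymal and many cultured cells, desmin of muscle, GFAP of astrocytes and peripherin of peripheral neurons. Type IV holds the neurofilament subunits, alpha-internexin, nestin and synemin, and type V the nuclear lamins.

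These libraries held mostly vimentin, 3 type IV genes and the lamins, and few keratins. VIM was the highest member at 422 FPKM in OVCAR3-NC and 414 in OVCAR3-OE, and INA, NEFH and NES each exceeded 100 FPKM in both. FPKM is the count per kilobase of gene, scaled to a common library total, and the scale on which genes are compared here. KRT18 stood at 33.6 and 33.1 FPKM, but KRT8, its usual type II partner, at 0.629 and 0.56. None of the 12 members with at least 50 counts differed 1.5-fold between the libraries, where 1.66% of all 14157 such genes did (1.02% higher and 0.643% lower in OVCAR3-OE). Such calls are made on CPM plus 1, where CPM is the count scaled by TMM to a common library total and not per length, and the added constant understates differences of low genes. A ratio is that of CPM without the constant. NES, at 1.28-fold, and INA, at 0.877 times its control level, were the furthest from 1-fold of these 12 on the log2 scale. With 0.1 CPM added and no count minimum, 3 members passed 1.5-fold, where 16.1% of all 28038 genes did. These were KRT86 and PRPH, higher, and GFAP, lower, from at most 10 counts in a library, and their counting intervals of the ratio all include 1-fold.

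Summed by type, type III genes held 41.8% of the members' FPKM in OVCAR3-NC and 40.5% in OVCAR3-OE. Type IV genes held 38.3% and 39.7%, and type V genes 15.3% and 15.4%. Type I keratins held 4.61% and 4.37%, and type II keratins 0.0649% and 0.0638%. The FPKM sums over all members were 1009 and 1021, and nearly the same mix was thus present in both libraries. These shares depend on the gene length behind the FPKM. For VIM the deposited FPKM implies 5176 bases, while the principal transcript in GENCODE release 29 has 2135, and for LMNA the lengths are 8141 and 3190. With principal transcript lengths type III held 59.4% and 58.1%, type IV 22.5% and 23.6%, type V 13.4% and 13.7%, type I keratins 4.6% and 4.44%, and type II keratins 0.12% and 0.111%.

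**Figure D1:**
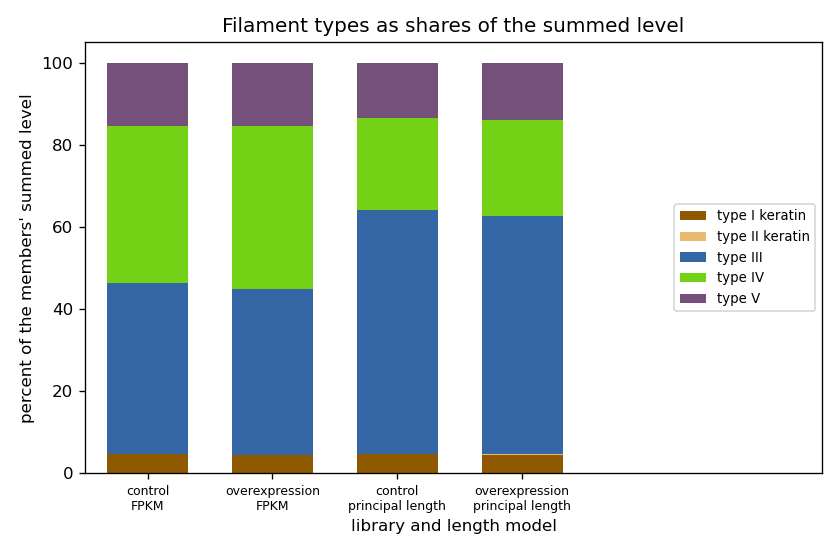
Share of the members' summed level (percent, vertical axis) held by each filament type in OVCAR3-NC and OVCAR3-OE, from the deposited FPKM (left pair of bars) and from counts per principal transcript length (right pair). Type III and type IV together fill most of every bar, and type II keratins, at 0.12% or less, are barely visible.

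Vimentin, the type III protein of mesenchymal cells, is encoded by VIM (ENSG00000026025; GRCh38 chr10:17228259-17237593, plus strand, principal transcript with 10 exons). It had 94249 counts in OVCAR3-NC and 102841 in OVCAR3-OE, 2175 and 2149 CPM. By FPKM it ranked 40th and 38th among all listed genes. The ratio of 0.988 had a 95% exact (Clopper-Pearson) counting interval of 0.979 to 0.997, and of 0.975 to 1 when counts were halved, which then reaches 1-fold. Halving allows for read pairs that may have been counted as 2, since 64.1% and 63.3% of the counts from 1 to 20 were even. All intervals cover counting error only. In GENCODE the antisense gene VIM-AS1 overlaps VIM by 1727 bases and had 190 and 195 counts, against which the VIM count is far larger.

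The other type III genes were near the floor of 3 counts, which equals 0.0692 CPM in OVCAR3-NC and 0.0627 in OVCAR3-OE. GFAP, the astrocyte filament, had 10 and 4 counts, and PRPH, peripherin, had 3 and 8. Their counting intervals of the ratio, 0.0829 to 1.26 and 0.579 to 14.1, both include 1-fold. An antisense gene with 27 and 14 counts overlaps PRPH over its whole length, and GFAP overlaps CCDC103, with 141 and 155, so even these few reads are uncertain in origin. DES, desmin of muscle, is not listed, and no entry of the table used here is at 0 in both libraries.

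Among type IV genes, nestin (NES, ENSG00000132688; chr1:156668763-156677397, minus strand, 4 exons), known as a filament of neural and other progenitor cells, had 27212 counts in OVCAR3-NC and 38354 in OVCAR3-OE. These equal 628 and 801 CPM, or 113 and 143 FPKM. The ratio of 1.28 (1.26 to 1.3, and 1.25 to 1.3 from halved counts) was the highest of the 12 members with at least 50 counts, and 3.81% of all measured genes had a log2 ratio at least as high. On the log2 scale of CPM plus 1 the difference was 0.35, and the authors' deposited table lists 0.34. In RNA from a whole culture, more cells with a transcript and more transcript per cell cannot be told apart.

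Alpha-internexin (INA, ENSG00000148798; chr10:103277163-103290351, plus strand, 3 exons), a filament protein of neurons, went the other way. It had 18992 counts in OVCAR3-NC and 18399 in OVCAR3-OE, or 135 and 118 FPKM. At 0.877 times its control level (0.859 to 0.895, and 0.852 to 0.903 from halved counts) it had a log2 ratio of -0.19, and 10.9% of measured genes had one as low. For INA the authors' deposited table has -0.2. The order of NES and INA by FPKM was thus opposite in the 2 libraries, with NES at 0.837 times INA in OVCAR3-NC and 1.22 times INA in OVCAR3-OE.

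The heavy neurofilament subunit (NEFH, ENSG00000100285; chr22:29480230-29491390, plus strand, 4 exons) had 20947 and 24104 counts, 128 and 132 FPKM, with a ratio of 1.04 (1.02 to 1.06). Its partners were nearly missing. The light subunit NEFL, on which neurofilament assembly depends in neurons, had 12 and 10 counts, 0.0705 and 0.0529 FPKM, and the medium subunit NEFM is not listed. NEFH therefore exceeded NEFL 1812-fold in FPKM in OVCAR3-NC and 2502-fold in OVCAR3-OE. Synemin (SYNM; chr15:99098217-99135593, plus strand), which joins vimentin or desmin filaments and does not form filaments alone, had 3357 and 4171 counts, 10 and 11.2 FPKM. Its ratio was 1.12 (1.07 to 1.18). Of the 31-base words of the principal transcripts, 20.2% in NEFH and 28.2% in SYNM also occur in other annotated genes, against 0% in NES and INA.

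A list of 14 neuronal markers was read beside these type IV genes. Of the 14, 8 are listed, 7 of them below 10 CPM in both libraries, and DCX, ELAVL2, ELAVL4, STMN2, SNAP25 and GAP43 are not listed. At least 50 counts were reached by 4 of the 8 markers, and by 14157 of all 28038 listed genes. The summed level of the listed markers was 43.6 CPM in OVCAR3-NC and 69.3 in OVCAR3-OE. The marker that reached 10 CPM was MAP2, a microtubule protein of dendrites, at 28.1 and 58.5 CPM, a ratio of 2.08 (1.95 to 2.23). It was the 1 of these 4 that differed 1.5-fold, where 1.66% of all 14157 such genes did. Of the other listed markers only NCAM1 was higher in OVCAR3-OE, at 6 and 28 counts, so the higher sum was mostly MAP2. TUBB3, the neuronal tubulin, was at 2.95 and 1.94 CPM, SYP at 7.96 and 5.85, and L1CAM at 3.51 and 2.13. The markers thus did not share a direction, and their part in the NES and INA ratios was not tested. Of 9 glial markers 8 are listed and 7 were below 10 CPM in both libraries, with MBP at 37.5 and 37.9 CPM and a sum of 41.3 and 41.7. Of 13 muscle markers 7 are listed, MYOD1 and MYOG are not, and the sums of 140.5 and 146 CPM were mostly TNNT1, at 127 and 129.

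**Figure D2:**
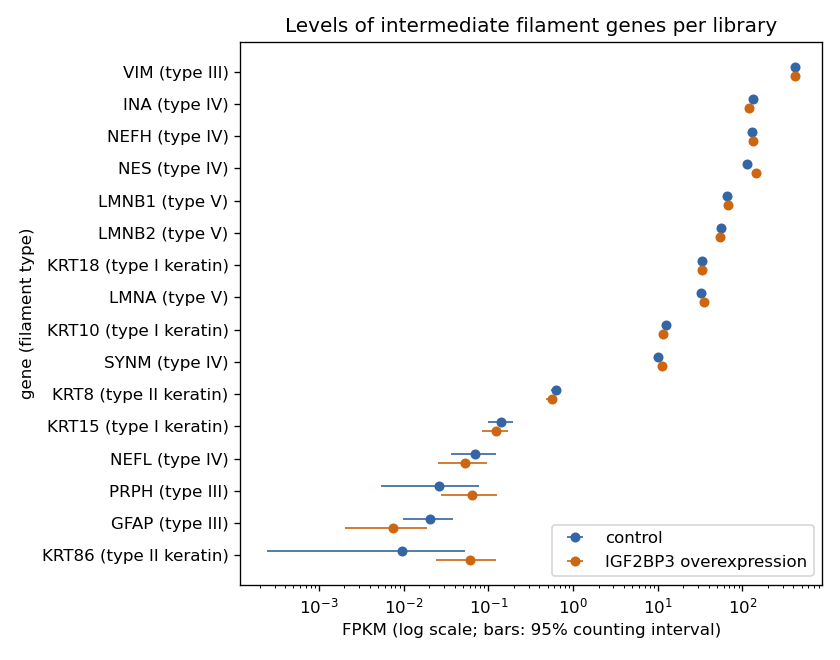
Deposited FPKM (horizontal log axis) of the 16 members with counts in both libraries, in OVCAR3-NC (control, blue) and OVCAR3-OE (overexpression, orange), with 95% counting intervals as bars. Levels fall from 422 FPKM for VIM to under 0.1 for NEFL, PRPH, GFAP and KRT86, and the points of the 2 libraries lie close together in the upper genes.

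All 3 lamins were well measured. The B-type lamins, which stay farnesylated and bound to the inner nuclear membrane, gave 10361 and 11713 counts for LMNB1 (chr5:126776623-126837020), 66.0 and 67.1 FPKM, and 12949 and 14232 counts for LMNB2 (chr19:2427638-2456996), 55.6 and 54.9 FPKM. Their ratios of 1.02 (0.997 to 1.05) and 0.995 (0.971 to 1.02) had intervals that include 1-fold. LMNB2 overlaps TIMM13, with 2433 and 2495 counts, by 257 bases on the same strand. LMNA (ENSG00000160789; chr1:156082573-156140089, plus strand, 12 exons), whose splicing gives lamins A and C, had 11364 and 13618 counts, 32.3 and 34.8 FPKM, and a ratio of 1.08 (1.06 to 1.11). The summed B-type lamins exceeded LMNA 3.76-fold and 3.5-fold in FPKM. With principal transcript lengths these ratios were 1.79 and 1.67, so the relation of the lamin types rests heavily on the length used.

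The lamin processing and nuclear envelope partner genes include the prelamin protease ZMPSTE24, the lamin B receptor LBR and the LINC complex. Of 24 such genes 22 are listed and 21 had at least 50 counts, as did 14157 of all 28038 listed genes. On the log2 scale 12 lay above 0 and 9 below it, and the median was 0.01 against 0.0 for all measured genes. None differed 1.5-fold, where 1.66% of all measured genes did. The members furthest from 0 were SYNE2 at 0.30, SYNE1 at 0.25, LEMD3 at 0.23 and SUN2 at 0.21. SYNE1 and SYNE2 encode nesprins, which with SUN2 couple the lamina to the cytoskeleton, and LEMD3 is an inner membrane protein that binds lamins.

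In both libraries KRT18 was the leading keratin. KRT18 (ENSG00000111057; chr12:52948871-52952901, plus strand, 7 exons), the type I keratin of simple epithelia, had 4460 counts in OVCAR3-NC and 4871 in OVCAR3-OE, 103 and 102 CPM. Its ratio was 0.989 (0.949 to 1.03). KRT8 (ENSG00000170421; chr12:52897187-52949954, minus strand, 9 exons), the adjoining type II gene, had 187 and 185 counts, 4.32 and 3.87 CPM, and a ratio of 0.896 (0.727 to 1.1). KRT18 exceeded KRT8 53.5-fold and 59-fold in FPKM, 32.5-fold and 35.8-fold with principal transcript lengths, and 23.9-fold and 26.3-fold in counts. The excess of KRT18 was thus large on each of these scales, and its size differed with the length used. The other listed type II keratins had at most 7 counts in a library. KRT4 had 2 and 0 counts, KRT80 0 and 2, KRT81 0 and 2, and KRT86 1 and 7. In GENCODE, KRT81 and KRT86 overlap by 5622 bases on opposite strands. Of the 31-base words of their principal transcripts, 53.2% and 48.4% occur in other annotated genes, so reads left out of them cannot be seen here. In sum, type II keratins stood at 0.0141 times type I keratins in FPKM in OVCAR3-NC and 0.0146 in OVCAR3-OE.

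KRT8 and KRT18 have many processed pseudogenes, among which reads can be split. In GENCODE, 55.5% of the 31-base words of the principal KRT8 transcript occur in other annotated genes, and 67.5% of those of KRT18. The table lists 14 KRT8 pseudogenes with 260 and 324 counts together, 139% and 175% of the KRT8 counts, and KRT8P12 held most of them with 160 and 184. The 19 listed KRT18 pseudogenes had 69 and 93 counts together, 1.55% and 1.91% of the KRT18 counts. Adding pseudogenes to their parents raised the type II to type I ratio to 0.086 and 0.099, with type I keratins still ahead in these sums. How reads that match several genes were counted is not given in the sources used here. The sums hold only reads assigned to a gene, so they cannot show how many KRT8 reads were left out. The summed ratios between libraries were 1.13 (0.955 to 1.33) for the KRT8 pseudogenes and 1.22 (0.884 to 1.69) for those of KRT18. The longest KRT8 transcripts also overlap KRT18 by 1084 bases on the opposite strand. The strand setting of the counting is not given in the sources used here, so reads within this overlap cannot be told apart here.

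**Figure D3:**
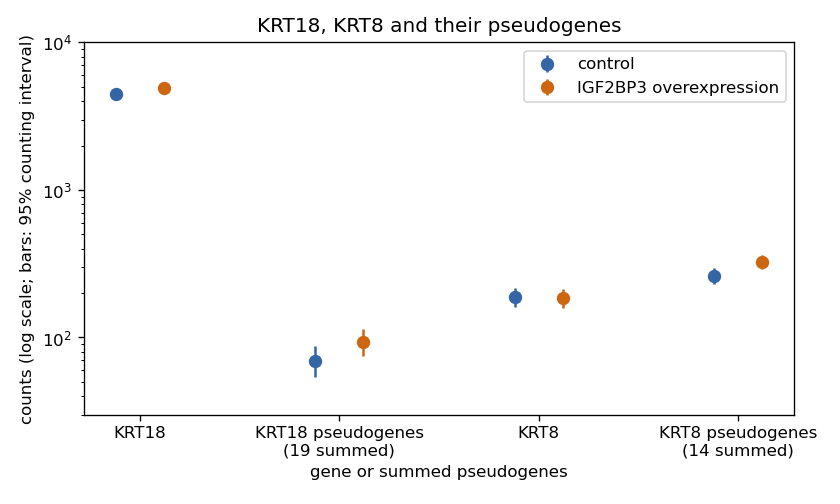
Counts (vertical log axis) of KRT18, KRT8 and their summed pseudogenes in OVCAR3-NC (control, blue) and OVCAR3-OE (overexpression, orange), with 95% counting intervals. KRT18 lies at 4460 and 4871 counts, while KRT8 lies below its 14 summed pseudogenes.

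KRT10 (ENSG00000186395; chr17:40818117-40822595, minus strand, 8 exons), the type I keratin of differentiating epidermis, was the second keratin by level. It had 1181 and 1182 counts, 12.6 and 11.4 FPKM, and a ratio of 0.906 (0.835 to 0.983, and 0.807 to 1.02 from halved counts). Its epidermal partner KRT1 is not listed. The gene listed as KRT10-AS1 is named TMEM99 in GENCODE, where it overlaps KRT10 by 3490 bases on the opposite strand. It had 438 and 406 counts. Only 1.5% of the 31-base words of the principal KRT10 transcript occur in another annotated gene, 1.3% in TMEM99, so these genes share little transcript sequence. KRT15, a type I keratin of basal cells, had 36 and 35 counts and a ratio of 0.88 (0.537 to 1.44). All 4 keratins with at least 50 counts had ratios below 1, but from halved counts every interval includes 1-fold.

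The remaining keratins were at or near 0. KRT19 and KRT17, keratins of simple and of stressed or basal epithelium, had 2 and 0 counts each, and KRT222 had 0 and 2. Of 55 human keratin genes whose GENCODE symbols fit the rule, 44 are not listed, among them KRT7, KRT5, KRT14, KRT1 and KRT20. The keratin cluster on chromosome 12 (52168996 to 52952901) holds 27 of the 55 genes, of which 6 are listed and 2, KRT8 and KRT18, had at least 50 counts. The cluster on chromosome 17 (40654665 to 41624842) holds 28, of which 5 are listed and 2, KRT10 and KRT15, had at least 50. Over all 28038 listed genes, 14157 had at least 50 counts. The share of all GENCODE genes that are not listed was not computed.

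Most keratins were low, and so were most epithelial markers. Of 22 such markers 16 are listed, and 14 did not reach 10 CPM in either library. At least 50 counts were reached by 4 of the 16, and by 14157 of all 28038 listed genes. The share of all genes below 10 CPM was not computed. CDH1, the cadherin of epithelial junctions, gave 2 counts in either library, EPCAM 57 and 56, and GRHL2, a factor of epithelial identity, is not listed. The 2 markers above 10 CPM were AP1M2, at 113 and 124 CPM, and LSR, at 20.8 and 18.7. The summed level was 145 and 153 CPM. Of 13 ovarian serous markers 7 are listed and 6 stayed under 10 CPM, with PAX8 at 28 and 32 counts and MUC16 and WT1 not listed. Their summed 54.5 and 49.3 CPM were mostly CCNE1, at 44.5 and 38.4. Of 18 mesenchymal markers 15 are listed, and 6 reached 10 CPM while 9 did not. The sums of 581 and 571 CPM were mostly TAGLN, at 254 and 207, and S100A4, at 182 and 221. ZEB1 stood at 57.1 and 58.9 CPM and CDH2 at 13.1 and 12.5, but FN1 at 3.02 and 2.36, COL1A1 at 1.68 and 1.38 and TWIST1 at 1.04 and 0.648. SPARC, MMP2 and TGFBI are not listed. Most of the listed keratin, epithelial and serous genes were thus under 10 CPM in both libraries, although the labels name an epithelial carcinoma line. KRT18, at 103 and 102 CPM, KRT10, AP1M2, LSR and CCNE1 were exceptions. Reads of KRT8 may also be split with its pseudogenes. The identity of the cultures was not tested. Squamous markers summed to 0.0923 and 0.0836 CPM, leukocyte markers to 2.77 and 3.2, and endothelial markers to 0.0923 and 0.125.

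Stretches of DNA before the start of 3 members are shown, the highest member by level (VIM) and, of the 12 with at least 50 counts, those with the highest (NES) and the lowest (INA) ratio. They hold the 250 bases upstream of the start in RefSeq (GRCh38.p14), for VIM at chr10:17227991-17228240 on the plus strand, NES at chr1:156677408-156677657 on the minus strand and INA at chr10:103276888-103277137 on the plus strand. Capitals mark matches, on either strand, to the motifs searched. These were the GC box with the letters GGGCGG, the CCAAT box with the letters of its name, the TATA box with the letters TATAAA, and the AP-1 site with the letters TGANTCA. No matches overlapped here.
VIM: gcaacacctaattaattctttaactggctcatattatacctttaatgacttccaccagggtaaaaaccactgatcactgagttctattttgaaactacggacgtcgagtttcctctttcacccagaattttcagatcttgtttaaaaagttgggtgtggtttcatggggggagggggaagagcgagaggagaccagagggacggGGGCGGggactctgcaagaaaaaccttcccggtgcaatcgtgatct
NES: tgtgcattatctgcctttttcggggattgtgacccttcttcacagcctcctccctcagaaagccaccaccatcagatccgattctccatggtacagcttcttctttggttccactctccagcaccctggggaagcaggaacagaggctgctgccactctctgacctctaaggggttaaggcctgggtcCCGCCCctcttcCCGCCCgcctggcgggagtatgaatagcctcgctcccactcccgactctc
INA: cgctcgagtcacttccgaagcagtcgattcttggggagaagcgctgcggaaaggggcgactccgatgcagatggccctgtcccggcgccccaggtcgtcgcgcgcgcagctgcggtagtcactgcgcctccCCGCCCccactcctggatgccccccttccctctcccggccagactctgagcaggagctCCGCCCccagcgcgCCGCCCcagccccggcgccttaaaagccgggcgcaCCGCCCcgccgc
The VIM stretch held 1 GC box, NES 2 and INA 4, and none of the 3 held another of these motifs. Over all 35116 RefSeq stretches of this length, 42.6% held a GC box, 32% a CCAAT box, 10.7% a TATA box and 6.57% an AP-1 site. These stretches can include several starts of a gene, while each member is given by its outermost RefSeq start only. The number of CG pairs was 8 in VIM, 8 in NES and 30 in INA, where the median over all stretches was 11. RefSeq stretches were at hand for 42 genes that fit the rule, but not for KRT18, KRT15 and NEFH. The 9 with at least 50 counts had a median of 10 CG pairs (0 to 34), and 6 of them held a GC box and 1, KRT10, a TATA box. The RefSeq starts of KRT8 and SYNM lie 23485 and 6863 bases inside the outermost GENCODE start of the gene, so their stretches are upstream of 1 of several starts only. The 7 genes whose starts lie within 1000 bases of the GENCODE one had the same median of 10 (0 to 30), and 5 held a GC box. The 31 that are not listed in the table had a median of 2 (0 to 7), and 4 held a GC box and 19 a TATA box. All of these 31 are keratins, and the keratins among the 9, KRT8 and KRT10, held 1 and 0 CG pairs. The difference in CG pairs thus cannot be told apart from that between keratins and the other members. A match of letters is a description and does not show that a factor binds.

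The ratios of the 12 members with at least 50 counts ran from 0.877 for INA to 1.28 for NES. The median log2 ratio of the 12 members was -0.01, with 5 above 0 and 7 below, against 0.0 over all 14157 genes. As deposited, the counting interval excluded 1-fold in 7 of the 12 (4 above and 3 below), where 41.4% of all genes had such an interval. From halved counts it did so in 5 of the 12, NES, SYNM, LMNA and NEFH above and INA below, where 26.8% of all genes did. These intervals narrow with the count, so a highly counted gene leaves 1-fold at a small ratio. By FPKM the order was VIM, INA, NEFH, NES, LMNB1, LMNB2, KRT18, LMNA, KRT10, SYNM, KRT8 and KRT15 in OVCAR3-NC. Intervals of neighbours overlapped only for KRT18 and LMNA there, and only for KRT10 and SYNM in OVCAR3-OE, where NES came before NEFH and INA, and LMNA before KRT18. With principal transcript lengths LMNA moved up beside LMNB1, at 82.5 against 83.4 in OVCAR3-NC and 88.9 against 84.8 in OVCAR3-OE. KRT18 then stood beside LMNB2, at 66.1 against 64.2 and 64.9 against 63.5.

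**Figure D4:**
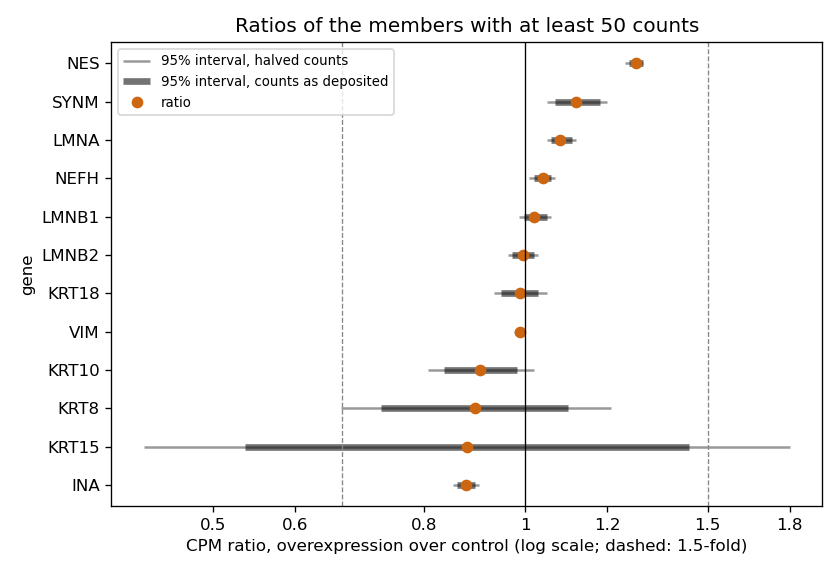
Ratio of CPM, overexpression over control (horizontal log axis), of the 12 members with at least 50 counts, with 95% counting intervals from the counts as deposited (thick) and halved (thin). NES lies highest at 1.28 and INA lowest at 0.877, and every ratio is within the dashed lines at 1.5-fold.

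**Figure D5:**
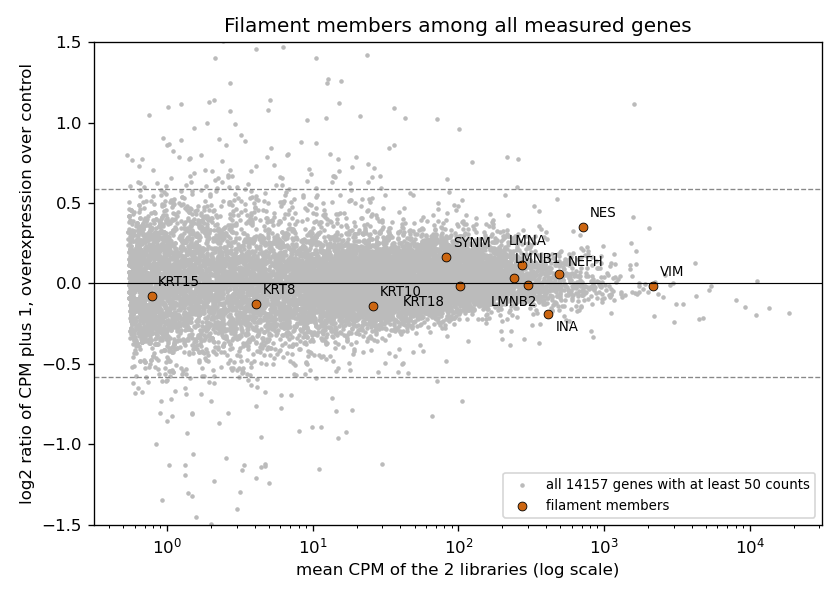
Log2 ratio of CPM plus 1 (vertical axis) against the mean CPM of both libraries (horizontal log axis) for all 14157 genes with at least 50 counts (grey) and the 12 filament members (orange), with dashed lines at 1.5-fold. The members lie between -0.19 (INA) and 0.35 (NES), and 49 grey genes fall beyond the plotted range of 1.5.

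Filaments are anchored by plakins and at desmosomes. Of 24 such genes 20 are listed and 14 had at least 50 counts, as did 14157 of all 28038 listed genes. Of these 14, 10 log2 ratios were positive and 4 negative, the median was 0.20, and none differed 1.5-fold. Over all 14157 genes 7241 were positive and 6916 negative, the median was 0.0, and 1.66% differed 1.5-fold. The plaque protein JUP had 543 and 806 counts, a ratio of 1.34 (1.2 to 1.5), and the desmosomal cadherin DSC2 59 and 101, a ratio of 1.55 (1.11 to 2.17) that is 0.40, short of 1.5-fold, as a log2 ratio of CPM plus 1. MACF1, a linker of actin and microtubules, was at 1.19 (1.16 to 1.22), and TCHP, trichoplein, a keratin-binding protein of centrioles, at 0.832 (0.77 to 0.9). Among 24 filament kinases, chaperones and proteases 22 are listed and 20 had at least 50 counts. Of these 13 lay above 0 and 7 below, with a median of 0.04 and none 1.5-fold different. SFN, a 14-3-3 protein of epithelia, had 100 and 181 counts, a ratio of 1.64 (1.28 to 2.11) and a log2 ratio of 0.53 on CPM plus 1, and the kinases ROCK1, ROCK2 and PRKCE had log2 ratios of 0.30, 0.29 and 0.29.

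Of 18 activators of keratin genes and epithelial splicing factors, 14 are listed and 6 had at least 50 counts. Over all 28038 listed genes, 14157 had at least 50. On the log2 scale 5 of the 6 lay above 0 and 1 below, with a median of 0.11. Over all 14157 genes 7241 lay above 0 and 6916 below, with a median of 0.0. The AP-2 factors went opposite ways, with TFAP2C at 952 and 775 counts, a ratio of 0.737 (0.669 to 0.811), and TFAP2A at 189 and 288, a ratio of 1.38 (1.14 to 1.67). SP1, a broadly expressed activator, was at 1.23 (1.19 to 1.26), and GRHL1 at 1.15 (0.915 to 1.44). TP63, the factor of basal epithelium, had 2 and 0 counts. Of 22 genes of the cornified envelope and hair, 7 are listed and 2 had at least 50 counts. These were FLG (filaggrin, which bundles keratin in epidermis) with 338 and 383 and HRNR (hornerin) with 38 and 59. Their ratios of 1.03 (0.884 to 1.19) and 1.41 (0.919 to 2.17) had intervals that include 1-fold.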

How the data were processed

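RNA of 1 control and 1 IGF2BP3-overexpressing culture was captured with oligo(dT) beads and made into dUTP libraries, per the labels' protocols. Per the file headers, the authors deposited whole-number counts per gene, FPKM values and a log2 fold change. The submitters' processing notes name GRCh38. For aligner, counter, strand setting and gene annotation, the entry is: not given in the sources used here. The length behind an FPKM was computed as the count over the FPKM and the library total.

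Counts were scaled by TMM (edgeR 4.0.16, R 4.3.3) on all 28038 genes. Differences are log2 ratios of CPM plus 1 for the 14157 genes whose counts over the 2 libraries reached 50. Ratios themselves are of CPM without a constant, with 95% exact counting intervals. The ratio and interval code was tested on simulated data. Positions, transcript lengths and shared 31-base words came from GENCODE release 29, promoters from RefSeq.

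The members, lists and comparisons were chosen with earlier results of these data known. Every member is described, those with at least 50 counts in full; of other lists, genes 1.5-fold different and otherwise up to 4 furthest from 0 are named. Alternatives were other scalings (library totals, DESeq2 1.42.0 size factors), FPKM, pseudocounts, count minimums, a 2-fold threshold, halved counts, added pseudogenes and, chosen after seeing the data, principal transcript lengths, 0.1 CPM with no count minimum, and upstream stretches near the GENCODE start only. Figures used matplotlib 3.10.9, other steps Python 3.11.15, numpy 2.4.6, pandas 2.3.3 and scipy 1.17.1.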

Additional observations from a re-analysis of the deposited data

How the results depend on the processing

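No member with at least 50 counts differed 1.5-fold under any scaling, pseudocount or threshold tried. The 2-fold threshold and the pseudocount of 5 CPM could not have added a call, since both are stricter than the settings reported. A lower or no count minimum could not add a call with 1 CPM added, since the 10 members under 50 counts reach at most 0.277 CPM and thus a ratio of at most 1.28 on that scale. With 0.1 CPM added and no minimum, chosen after seeing the data, 3 were called, KRT86, PRPH and GFAP. The members' median log2 ratio of -0.012 ranged from -0.021 with library totals to -0.007 with DESeq2 size factors or a count minimum of 200. Across the 12 single genes, all 72 values under alternatives kept the sign reported. Halved counts and other pseudocounts cannot change a sign, so only the other scalings and FPKM could have done so. Halved counts brought the interval of VIM to 1 and that of KRT10 across it. The sums by type moved with the length used: with principal transcript lengths, in place of those behind the FPKM, type I keratins summed to 79.2 in OVCAR3-NC and 76.7 in OVCAR3-OE, type II keratins to 2.06 and 1.91, type III to 1022 and 1003, and type V to 230.0 and 237. The type II to type I ratio, 0.0141 and 0.0146, became 0.0261 and 0.0249 with those lengths, 0.0334 and 0.0322 in CPM, and 0.086 and 0.099 with pseudogenes added. Without keratins under 50 counts it was 0.0126 in OVCAR3-OE, where the type II sum then was 0.56 FPKM. No paired analysis was possible because each group has 1 library. The depth limits what can be said of the 10 members under 50 counts.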

Other observations

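Filament-family genes outside the rule were measured as well. BFSP1, which encodes the lens filament protein filensin, had 78 counts in OVCAR3-NC and 164 in OVCAR3-OE, a ratio of 1.9 (1.44 to 2.53, and 1.28 to 2.86 from halved counts). Its log2 ratio of 0.66 made it the 1 of the 4 measured genes of its list that differed 1.5-fold. Of all 14157 measured genes 1.66% did so, and 1.02% were higher in OVCAR3-OE. BFSP2, its partner in the beaded filaments of the lens, is not listed. IFFO2 had a ratio of 0.866 (0.802 to 0.934) and IFFO1, an intermediate filament family orphan, at 0.961 (0.881 to 1.05). SYNC, syncoilin, had 19 and 27 counts. KRTCAP2, an oligosaccharyltransferase subunit despite its keratinocyte name, had 344 counts in each library.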
